A study of Homo sapiens with 10 samples.

Results

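The imprinted cluster on the short arm of human chromosome 11 that holds H19, IGF2, KCNQ1 and CDKN1C was described across all libraries of a CUT&RUN study of DNA break signalling. Its members are the 900 bins of 1 kb between positions 2010001 and 2910000 of chromosome 11 in hg19, out of 2798557 bins in the tracks. Of these bins, 4 touch H19 (chr11:2016406-2019065), 21 touch IGF2 (chr11:2150342-2170833), 405 touch KCNQ1 (chr11:2466221-2870340) and 3 touch CDKN1C (chr11:2904448-2906995). Its bounds are positions, but it was picked for description with earlier results of these data known.

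Several genes of this cluster are expressed mainly from the chromosome inherited from one parent. H19 is a noncoding RNA transcribed from the maternal chromosome, and IGF2 encodes a fetal growth factor made from the paternal one; a methylated control region near H19 sets both. KCNQ1 encodes a potassium channel subunit, and from within it the antisense noncoding RNA KCNQ1OT1 is transcribed on the paternal chromosome, where it is linked to Polycomb silencing of neighbours such as CDKN1C, an inhibitor of the cell cycle. Trimethylation of histone H3 at lysine 27 (H3K27me3) is the Polycomb mark. Phosphorylated H2AX, called γH2AX, spreads over chromatin around DNA double strand breaks and is the standard mark of their recognition. The reads were not split by parental chromosome, so every value below is a sum over both.

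CUT&RUN releases and sequences the DNA fragments that an antibody marks in nuclei. K562, a leukaemia line of erythroid character, and HepG2, a line from a liver tumour, received 6 Gy of gamma radiation where irradiated. γH2AX was profiled in K562 after 1 h of recovery (2 libraries) and 24 h (2 libraries) and in HepG2 after 1 h (1 library), and H3K27me3 in irradiated K562 after 1 h (1 library). Untreated H2AX libraries, 2 from each line, served as the chromatin background. For these H2AX libraries the antibody entry of the labels names histone H4. No library of unirradiated γH2AX, unirradiated H3K27me3 or HepG2 H3K27me3 was analysed here, so a difference between γH2AX and H2AX compares antibodies as well as treatments.

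Values are levels: the mean read depth of a bin, window or gene divided by the mean of its library, so that 1 is the genome average. By read lengths inferred from the tracks, the libraries hold 22.3 M to 83.1 M reads (M, mega). Those lengths were 60 bp in the K562 γH2AX libraries at 1 h and in the H3K27me3 library and 41 bp in the other 7, so read length and these groups cannot be told apart. K562 γH2AX at 24 h, replicate 1, stands apart. It reads 0 in 147 of the 900 bins (16.3%), against 8 bins in replicate 2, and in 35.7% of all bins. Over all bins where it reads above 0, the K562 γH2AX libraries at 1 h averaged at most 1.642 reads per base. The 144 bins of the region above that depth thus read 0 in it by the choice of the cut. No label or file header tells whether its track was made like the others, and its levels may not be comparable with theirs. It was left out of the test, so the 24 h group below is replicate 2 alone, and its values are given apart. The line labels were checked on copy number: of 28063 windows of 100 kb, 88 on chromosome 9 were under 0.05 in K562 H2AX and at least 0.5 in HepG2, and 43 on chromosome 22 were at least 3 times as high in K562. These match the known loss around CDKN2A and gain around BCR of K562.

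At 1 h after irradiation the region was poor in γH2AX in K562. The level over the 900 kb was 0.695 and 0.697 in the 2 libraries at 1 h, against 1.13 and 1.02 in K562 H2AX. At 24 h it was 0.841 in replicate 2 (1.25 in the replicate that stands apart). HepG2 γH2AX lay at 0.646, against 0.864 and 0.835 in HepG2 H2AX. Apart from that replicate, γH2AX lay below every H2AX library of the same line, but relative to the 1 Mb on each side the 24 h library lay 0.07 above H2AX on the log2 scale. H3K27me3 in K562 lay at 3.37. The surrounding 1 Mb on each side had levels of 0.957 and 0.988 for K562 γH2AX at 1 h, 1.19 and 1.09 for K562 H2AX, 0.597 for HepG2 γH2AX and 2.42 for H3K27me3.

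**Figure D1:**
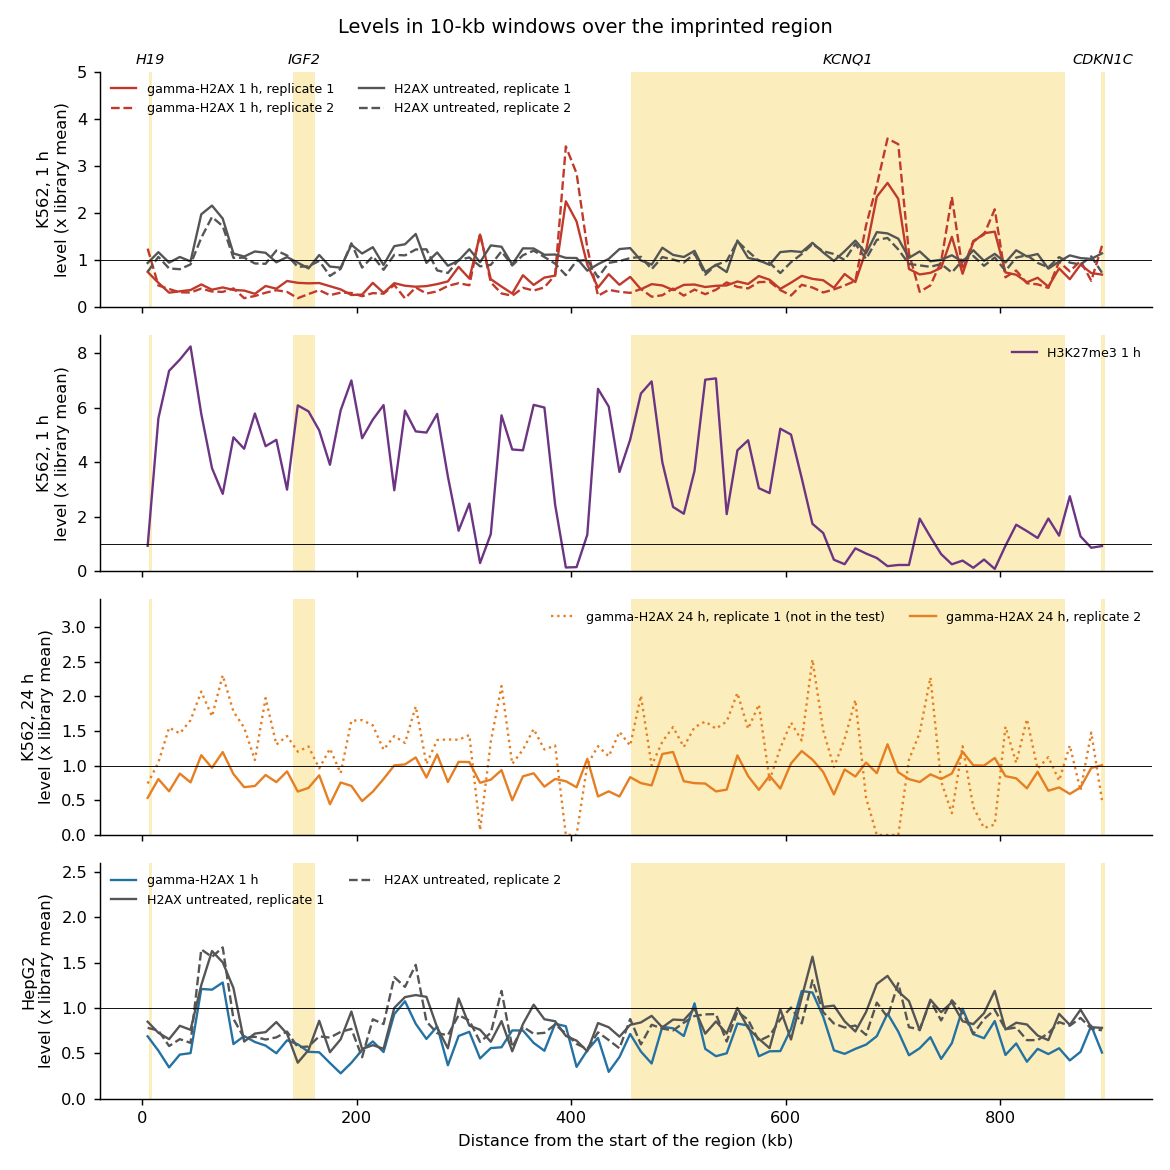
Levels (multiples of the library mean, vertical axis) in the 90 windows of 10 kb against the distance from the start of the region in kb, for K562 γH2AX and H2AX, K562 H3K27me3, K562 γH2AX at 24 h, and HepG2; each line is 1 library and yellow bands mark the 4 genes. In K562 at 1 h, γH2AX stays below H2AX in most windows, with a few narrow rises, the highest reaching 3.58 in replicate 2, and H3K27me3 dips at those rises.

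H19 is short, so its levels rest on few reads, 19.6 to 119 per library over its 4 bins. Its γH2AX level was 0.382 and 1.00 in K562 at 1 h, 0.346 at 24 h and 0.385 in HepG2. H2AX lay at 0.880 and 0.630 in K562 and at 0.385 and 0.487 in HepG2, and H3K27me3 at 1.09. The K562 libraries at 1 h lie on both sides of the H2AX values, so H19 gave no separation there. Counting error alone spans 0.211 to 0.535 for the 24 h level, an exact Poisson interval at the 95% level; intervals of this kind cover counting error only, and reads may be copies of the same molecule. The 24 h replicate that stands apart had 1.06.

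IGF2 lay deep in the Polycomb-marked stretch. Its H3K27me3 level was 6.06, the highest of the 4 genes and 6.95 times the mean of K562 H2AX. γH2AX in K562 at 1 h was 0.514 and 0.254, both below the H2AX values of 0.864 and 0.878. At 24 h γH2AX was 0.693 (1.19 in the replicate that stands apart). HepG2 showed no such gap: γH2AX was 0.560, between the H2AX values of 0.469 and 0.588. The 1 h mean in K562, 0.384 ± 0.184 (SD, n = 2), was 0.441 times that of H2AX, 0.871 ± 0.00971 (SD, n = 2). Within the gene, H3K27me3 was between 3.57 and 9.02 in every bin except 2 neighbours, chr11:2160001-2162000, at 0.87 and 1.16.

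KCNQ1, the longest gene of the cluster, combined stretches with and without H3K27me3. Over its 405 bins, γH2AX in K562 at 1 h was 0.821 and 0.858, against H2AX at 1.11 and 1.03. At 24 h γH2AX was 0.880 (1.19 in the replicate that stands apart). HepG2 γH2AX was 0.662, against H2AX at 0.916 and 0.858. H3K27me3 was 2.31. All γH2AX libraries of the test lay below the H2AX libraries of their line; in K562 at 1 h the mean was 0.783 times that of H2AX.

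CDKN1C, like H19, is too short for firm values. γH2AX in K562 at 1 h was 0.436 and 1.40, far apart, against H2AX at 0.936 and 0.391. At 24 h γH2AX was 0.984, in HepG2 0.603 against H2AX at 0.419 and 0.453, and H3K27me3 was 1.10. The 24 h replicate that stands apart had 0.419. These levels rest on 10 to 125 reads in 3 bins.

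**Figure D2:**
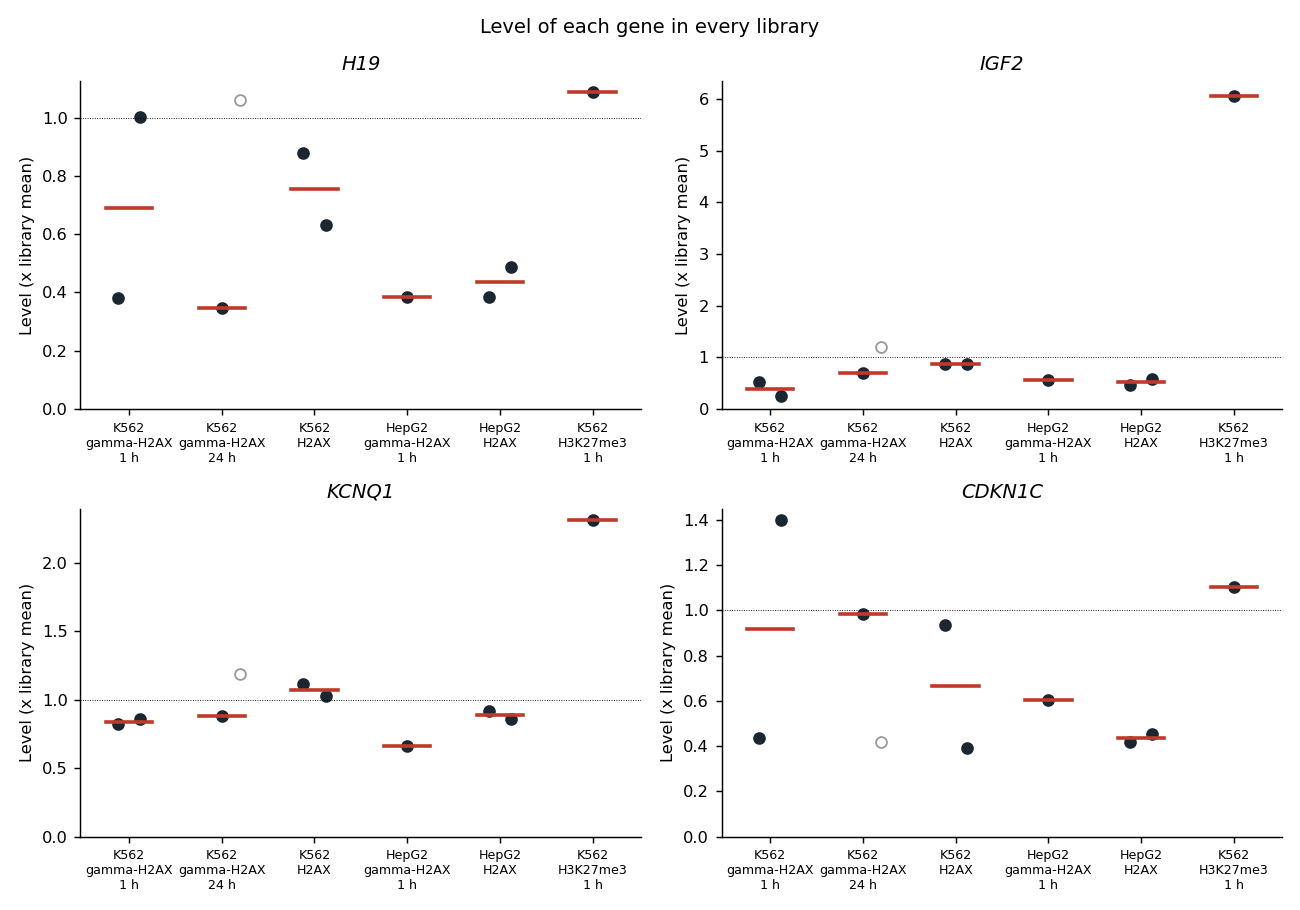
Level of each gene (multiples of the library mean) by group; each point is 1 library, red bars are group means, and the open grey circle is the 24 h replicate left out of the test and of the mean. H3K27me3 stands at 6.06 in IGF2 and 2.31 in KCNQ1, against 1.09 in H19 and 1.10 in CDKN1C, and the 1 h replicates part widely in the 2 short genes.

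The order of the 4 genes was clearest for H3K27me3: IGF2 at 6.06, KCNQ1 at 2.31, CDKN1C at 1.10 and H19 at 1.09. The last pair did not differ beyond counting error, with Poisson intervals of 0.844 to 1.42 and 0.863 to 1.36. For γH2AX at 1 h in K562, the replicate means were 0.917 in CDKN1C, 0.840 in KCNQ1, 0.691 in H19 and 0.384 in IGF2. The replicate ranges of CDKN1C, KCNQ1 and H19 overlap, and IGF2's range of 0.254 to 0.514 overlaps that of H19 and CDKN1C but not that of KCNQ1. The genes have no limma test of their own, since no annotation of hg19 was used.

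Windows of 10 kb were tested across the genome with limma, and 276048 of them entered. In K562 at 1 h, γH2AX differed from H2AX in 78 of the 90 windows of the region at a Benjamini-Hochberg adjusted p under 0.05, where 54.9% of all windows passed. It was lower in 69 windows (36.4% of all windows) and higher in 9 (18.5% of all windows). The median log2 fold change was -1.09 in the region and -0.04 over all windows. All 3 windows that touch IGF2 were lower, by 1.06 to 1.35 on the log2 scale. Of the 42 that touch KCNQ1, 29 were lower and 6 higher. The windows that hold H19 and CDKN1C did not pass, at log2 fold changes of 0.19 and 0.05. The fit that adds the 24 h replicate left out above calls 0 of the 78.

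**Figure D3:**
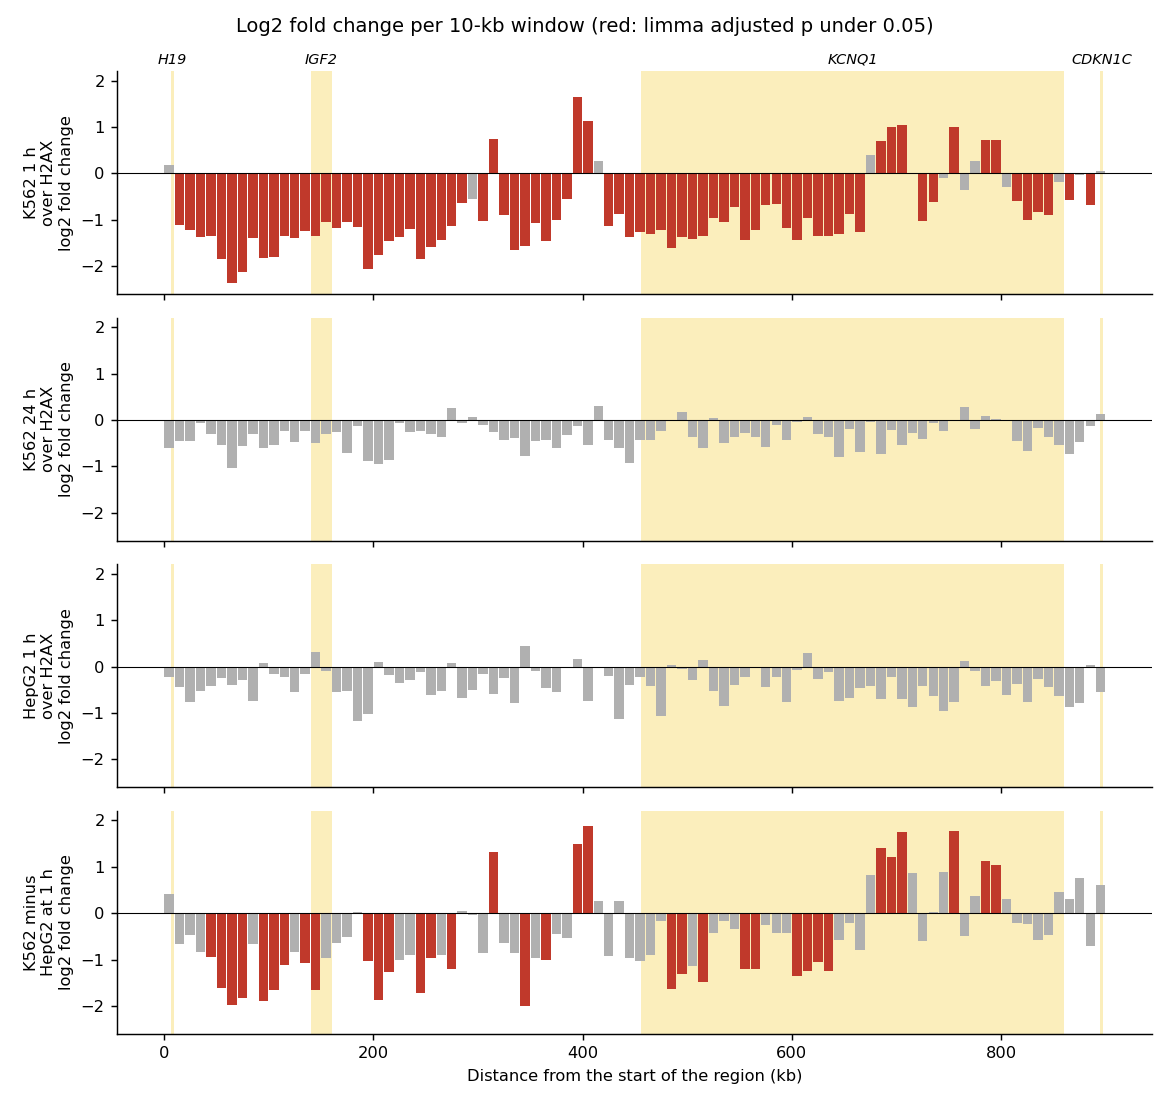
Log2 fold change in each 10-kb window (vertical axis) against the distance from the start of the region in kb, for γH2AX over H2AX in K562 at 1 h and 24 h and in HepG2 at 1 h, and for the difference between the lines; red bars passed an adjusted p under 0.05, grey bars did not, and yellow bands mark the genes. The top panel has 69 red bars below 0 and 9 above, the 2 middle panels have none, and the bottom panel has 26 below and 9 above.

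The deficit began just past H19 and ran without a break for 280 kb, across IGF2 and beyond. In the 28 windows of chr11:2020001-2300000, γH2AX at 1 h averaged 0.425 and 0.325, H2AX in K562 1.18 and 1.05, and H3K27me3 5.28. Every one of the 28 windows was lower in γH2AX than in H2AX, by 0.63 to 2.36 on the log2 scale. A second stretch of 25 windows, chr11:2430001-2680000, runs from before KCNQ1 well into the gene, with γH2AX at 0.519 and 0.380, H2AX at 1.10 and 1.02 and H3K27me3 at 3.86.

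The lowest window was chr11:2070001-2080000, between H19 and IGF2. There γH2AX at 1 h was 0.375 and 0.336 and K562 H2AX 2.16 and 1.92, which is -2.36 on the log2 scale (SE 0.18, limma adjusted p = 0.000115). H2AX was also high in HepG2, at 1.63 and 1.56, and so was HepG2 γH2AX, at 1.20. The windows chr11:2080001-2090000 (-2.13) and chr11:2200001-2210000 (-2.06) followed. The K562 H2AX level at chr11:2070001-2080000 was the highest of the 90 windows in both replicates.

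The 9 windows with more γH2AX than H2AX formed separate islands. The highest over H2AX, chr11:2400001-2420000, lies between IGF2 and KCNQ1. γH2AX at 1 h averaged 2.03 and 3.13 there, K562 H2AX 1.05 and 0.835, and H3K27me3 0.142. Over H2AX, its first window stood at 1.65 on the log2 scale (SE 0.25, limma adjusted p = 0.000272) and its second at 1.13 (SE 0.23, limma adjusted p = 0.00146). Both 1 h libraries stand above all 4 H2AX libraries in each. Both marks changed within a few bins at its near side: H3K27me3 was 4.45 in the bin chr11:2393001-2394000 and 0.38 in chr11:2398001-2399000, and γH2AX climbed to 2.96 and 5.51 in chr11:2403001-2404000. Just past its far side, in chr11:2421001-2422000, γH2AX was 1.01 and 0.99.

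Inside KCNQ1 the longest island was chr11:2690001-2720000. γH2AX at 1 h averaged 2.43 and 3.21 over its 3 windows, and H3K27me3 0.299. K562 H2AX was itself above average there, at 1.54 and 1.38, as was HepG2 H2AX at 1.27 and 1.08. The last window, chr11:2710001-2720000, stood 1.05 above H2AX on the log2 scale (SE 0.22, limma adjusted p = 0.00146). At the island's far edge γH2AX was 1.59 and 2.13 in chr11:2719001-2720000, 0.00 and 0.44 in chr11:2721001-2722000 and 2.48 and 1.62 in the bin after that. Further islands in KCNQ1 were chr11:2760001-2770000, at 1.50 and 2.34, and chr11:2790001-2810000, at 1.59 and 1.81. A single window between IGF2 and KCNQ1, chr11:2320001-2330000, completed the set at 1.54 and 1.57. The count of 9 moved as single libraries were left out, and fell most without K562 H2AX replicate 2. The all-window shares of those fits are not given here, so such a move need not be particular to the islands.

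**Figure D4:**
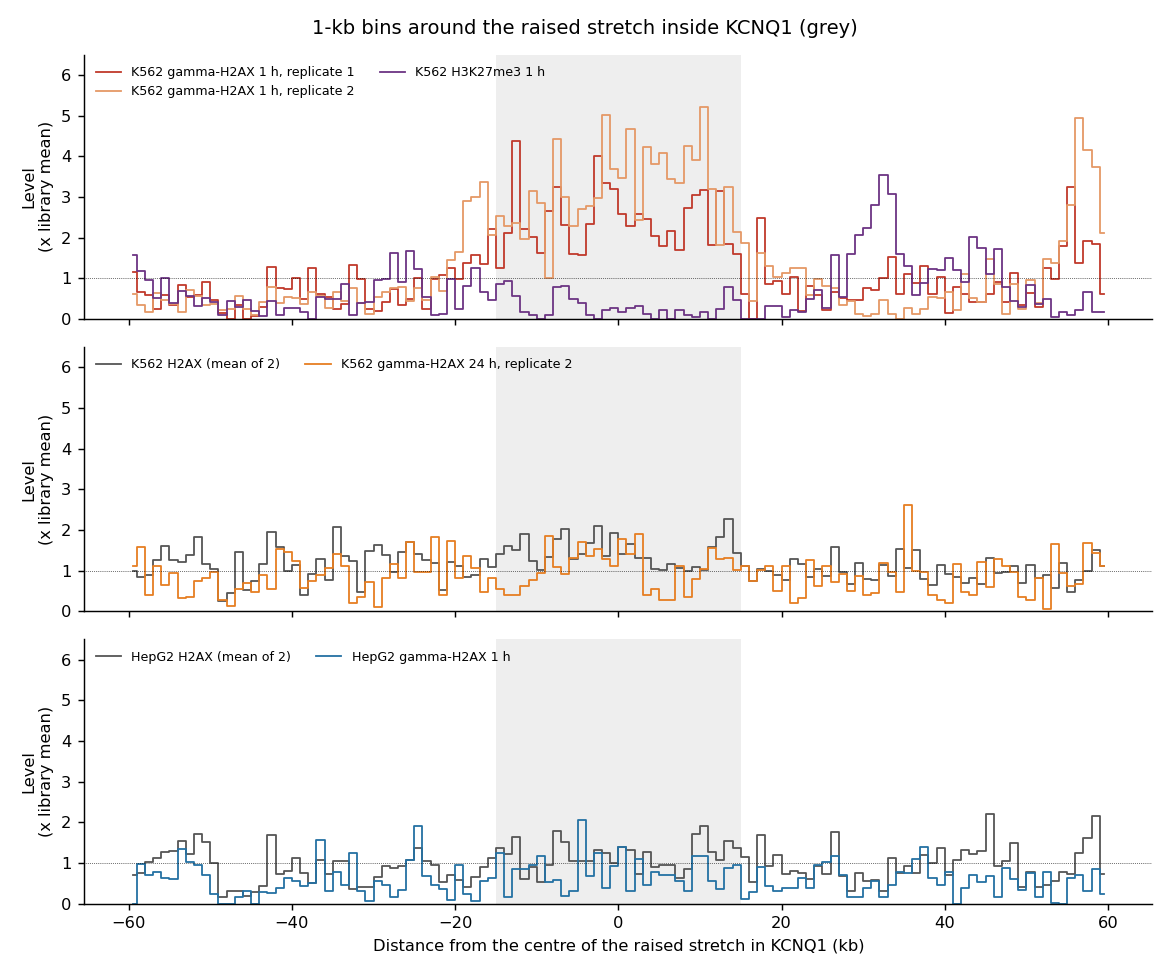
Levels in 1-kb bins (multiples of the library mean) within 60 kb of the centre of the raised stretch in KCNQ1, whose 30 kb are grey; panels show K562 γH2AX at 1 h with H3K27me3, K562 H2AX with γH2AX at 24 h, and HepG2. K562 γH2AX at 1 h fills the grey stretch at means of 2.43 and 3.21 while H3K27me3 averages 0.299, and neither the 24 h library nor HepG2 γH2AX shows the same rise.

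H3K27me3 covered most of the region. The median over its 90 windows was 3.23, against 0.211 over all windows, and 34 of the 90 exceeded 4.55, the 95th percentile of all windows. H3K27me3 was above H2AX in 59 windows and below it in 17, so 76 of 90 passed, where 85% of all windows passed (21.6% higher and 63.4% lower). The all-window median was -1.89 on the log2 scale under division by the library mean and -0.01 under median-of-ratios scaling. With the second scaling, 79 of the region's windows were higher and 3 lower. The shares of all windows above belong to the first scaling, so these counts cannot be set against them. Against those all-window medians, the region's median was 1.55 under the first scaling and 3.68 under the second. The 3 windows that touch IGF2 had log2 fold changes of 2.25 to 2.72. In KCNQ1, 21 windows were higher and 14 lower under the first scaling.

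Highest by log2 fold change over H2AX was chr11:2530001-2540000 in KCNQ1, with H3K27me3 at 7.04 and H2AX at 0.749 and 0.693 (3.20). The highest level, 8.26, was in chr11:2050001-2060000 between H19 and IGF2. The 3 lowest windows were all in KCNQ1, led by chr11:2800001-2810000 at a level of 0.084, or -3.10 over H2AX on the log2 scale. At the edge next to H19, H3K27me3 climbed within a few bins of 1 kb. It was 0.55 in chr11:2019001-2020000 at the end of the gene, 5.95 in chr11:2023001-2024000 and 9.67 in chr11:2027001-2028000. With 1 H3K27me3 library, these windows and edges have no replicate check, and the H3K27me3 counts above take their spread from the groups of other antibodies.

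Levels of the 2 marks ran opposite to each other along the region in K562 at 1 h. Over the 90 windows, Spearman's rho of the H3K27me3 level with the γH2AX level was -0.753 and -0.779 in the 2 libraries, against -0.385 and -0.583 over all windows. The K562 H2AX libraries gave -0.093 and -0.089, γH2AX at 24 h -0.273 and HepG2 γH2AX -0.163. Over all windows these were 0.387 and 0.336, 0.173 and -0.138. The values of K562 H2AX and of the 24 h library were thus also lower in the region than over all windows. These are descriptions: neighbouring windows are not independent, all libraries share the mappability of a window, and those of 1 line share its copy number. In the 9 windows with raised γH2AX, H3K27me3 ranged from 0.084 to 0.484, with a median of 0.228. In the 69 with lowered γH2AX its median was 4.50, but the lowest, 0.257, fell within the range of the islands. Low H3K27me3 thus occurred without raised γH2AX, for example in chr11:2770001-2780000 of KCNQ1, at 0.389 with γH2AX at 0.712 and 0.798.

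**Figure D5:**
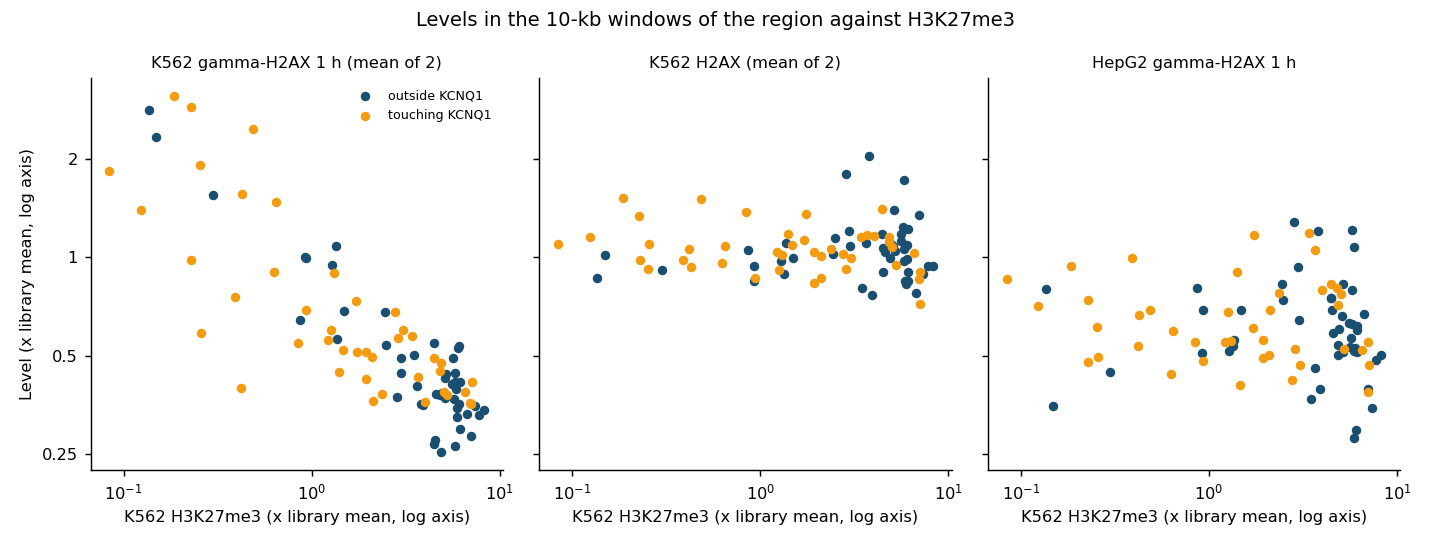
Level of K562 γH2AX at 1 h, K562 H2AX and HepG2 γH2AX (vertical, log axis) against the K562 H3K27me3 level (horizontal, log axis) in the 90 windows of 10 kb; orange points touch KCNQ1. The left panel slopes down (rho of -0.753 and -0.779 for its 2 libraries), and the other panels are nearly flat (-0.093 and -0.089 for K562 H2AX, -0.163 for HepG2).

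γH2AX at 1 h and at 24 h, replicate 2, differed in 53 of the 90 windows, where 47.2% of all windows passed; 43 were lower at 1 h (32% of all windows) and 10 higher (15.3%). The region's median log2 difference was -0.67, against -0.25 over all windows. The 3 windows with the largest excess at 1 h were chr11:2400001-2410000, chr11:2410001-2420000 and chr11:2710001-2720000, at 1.77, 1.66 and 1.59. With only the libraries of these 2 groups in the fit, 13 windows passed, where 25.9% of all windows did. At chr11:2400001-2410000 the level was 2.25 and 3.41 at 1 h and 0.775 at 24 h (SE 0.31, limma adjusted p = 0.00105). The H19 window passed as higher at 1 h, by 0.80 on the log2 scale, with levels of 0.751 and 1.25 at 1 h and 0.536 at 24 h. That call rests on 1 library at 24 h: the replicate left out reads 0.742 there, next to 1 h replicate 1. Among the windows lower at 1 h, chr11:2490001-2500000 in KCNQ1 had levels of 0.465 and 0.257 at 1 h and 1.17 at 24 h (-1.61, SE 0.30, limma adjusted p = 0.00134).

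Against H2AX, the 24 h library passed in 0 of the 90 windows, as in 0% of all windows; at an unadjusted p under 0.05 in limma, 17 windows (18.9%) passed, where 13.3% of all windows did. The log2 fold change was negative in 79 of the 90, with a median of -0.36, against 0.03 over all windows. The lowest p belonged to chr11:2070001-2080000, at 0.968 against 2.16 and 1.92 (-1.03, limma adjusted p = 0.312). Scaled to the 1 Mb on each side, the 24 h values of IGF2 and KCNQ1 turn from below H2AX to 0.09 and 0.14 above it on the log2 scale. Leaving out K562 1 h replicate 1 or 2, which enter only through the shared spread, gives 16 or 18 windows, all lower, where 9.92% and 9.66% of all windows passed. The compared libraries alone give 17, where 13.7% passed.

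In HepG2, γH2AX passed against H2AX in 0 of the 90 windows in limma, as in 0% of all windows. At an unadjusted p under 0.05, 26 (28.9%) passed, where 7.97% of all windows did. The log2 fold change was negative in 79 of 90 and the median was -0.40, against 0.00 over all windows. The lowest p was at chr11:2190001-2200000, between IGF2 and KCNQ1, with γH2AX at 0.280 and H2AX at 0.656 and 0.737 (-1.17, limma adjusted p = 0.419). Leaving out K562 1 h replicate 1 or 2 gives 19 or 18 windows, all lower, where 4.08% and 4.03% of all windows passed. The compared libraries alone give 16, where 3.87% passed. Where K562 has its islands, HepG2 γH2AX ranged from 0.352 to 0.940, with a median of 0.690, against H2AX medians of 1.06 and 0.899. The nearest flanks were low as well: relative to the 1 Mb on each side, the region's HepG2 γH2AX lay 0.06 below H2AX on the log2 scale.

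The lines were compared by the difference of differences, γH2AX over H2AX in K562 minus the same in HepG2, both at 1 h. It passed in 35 of the 90 windows, where 28.4% of all windows passed; 26 were lower in K562 (19.2% of all windows) and 9 higher (9.2%). The region's median was -0.64, against -0.15 over all windows. Inferred read length also differed between the γH2AX libraries compared, 60 bp in K562 and 41 bp in HepG2, and cannot be told apart from line. Under median-of-ratios scaling, 15 windows were lower and 10 higher. That scaling moves the log2 values of all windows together, so these counts alone show no change particular to the region. Of the windows touching IGF2, 1 of 3 was lower in K562; of those touching KCNQ1, 9 were lower and 6 higher; H19 and CDKN1C did not pass, at 0.42 and 0.60.

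The 9 windows higher in K562 than in HepG2 were chr11:2320001-2330000 and the 8 windows of chr11:2400001-2420000, chr11:2690001-2720000, chr11:2760001-2770000 and chr11:2790001-2810000. This comparison and that of K562 with its H2AX share 4 libraries. The highest was chr11:2410001-2420000: γH2AX 1.82 and 2.84 in K562 and 0.352 in HepG2, with H2AX at 1.05 and 0.987 in K562 and 0.641 and 0.604 in HepG2 (1.87, SE 0.37, limma adjusted p = 0.00697). In KCNQ1, chr11:2760001-2770000 followed at 1.77 and chr11:2710001-2720000 at 1.74. The lowest was chr11:2350001-2360000, with γH2AX at 0.293 and 0.246 in K562 and 0.754 in HepG2 (-2.01, SE 0.32, limma adjusted p = 0.00553). These calls depend on the H2AX replicates. With any 1 of the 4 H2AX libraries left out, the 3 highest and 3 lowest windows lose their call but keep their direction. The all-window shares of those fits are not given here, so such a fall in the count of windows need not be particular to the region. Leaving out K562 1 h replicate 1 or 2 gives 65 or 46, where 52.2% and 36.1% of all windows passed, and adding the 24 h replicate that stands apart gives 0, as in 0% of all windows.

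The chromatin background was compared between the lines in the same way. K562 H2AX was higher than HepG2 H2AX in 11 of the 90 windows, or 12.2%, close to the 14.2% of all windows, and lower in 0 (16.4%). In either direction, 12.2% of the region's windows passed and 30.6% of all windows. The region's median was 0.36, against -0.05 over all windows. Of the 11, 3 touch KCNQ1, and none touches H19, IGF2 or CDKN1C. The highest was chr11:2210001-2220000, at 1.14 and 0.844 in K562 and 0.549 and 0.458 in HepG2 (0.90, SE 0.22, limma adjusted p = 0.0101). Depth follows copy number as well as occupancy, and these cannot be told apart here. The flanks showed the same direction, 1.19 and 1.09 in K562 and 0.784 and 0.725 in HepG2, and relative to them KCNQ1 lay 0.32 lower on the log2 scale in K562, in place of 0.27 higher. Leaving out an H2AX library gives 0 or 1 window, where 5.27% to 11.3% of all windows passed. Leaving out K562 1 h replicate 1 or 2 gives 43 or 41 and the 4 H2AX libraries alone give 39, where 50.4% of all windows passed each time. Adding the 24 h replicate that stands apart gives 0, where 0.403% passed.

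The authors' peak lists, called per library, hold few peaks here. K562 at 1 h had 4 peaks in replicate 1 and 10 in replicate 2, which is 4.44 and 11.1 per Mb, against 15.0 and 16.5 per Mb over the genome. The 24 h and HepG2 lists, which hold 8 to 170 peaks in all, had 0 in the region. Peaks of the 2 lists at 1 h met at 3 places, 1 in the island before KCNQ1 and 2 in the longest island inside it, and at 2 of these the overlap covered at least 50% of the replicate 1 peak. The largest fold enrichment, as deposited, was 2.18 at chr11:2713757-2716259 in KCNQ1, the only peak of the region with a deposited q under 0.05. H19, IGF2 and CDKN1C held none; the nearest was a replicate 1 peak with a deposited fold of 1.70 at chr11:2012787-2013068, before H19.

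In the 30 bins that these peaks touch, K562 γH2AX at 1 h averaged 2.41 and 3.42, against 0.636 and 0.603 in the other 870; these libraries chose the peaks. In libraries of the test that did not, the same bins had γH2AX at 0.952 at 24 h and 0.735 in HepG2. Elsewhere in the region these were 0.837 and 0.643. For the 24 h replicate that stands apart, the values were 0.0376 in these bins and 1.29 elsewhere. H3K27me3 was 0.281 in them and 3.48 elsewhere. H2AX was also higher in these bins, at 1.32 and 1.06 in K562 and 1.20 and 1.04 in HepG2, against 1.12, 1.02, 0.853 and 0.828 elsewhere.

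By the gene order of RefSeq on GRCh38, INS, TH, ASCL2 and CD81 are among the genes between IGF2 and KCNQ1. INS encodes insulin, TH the rate-limiting enzyme of dopamine synthesis, ASCL2 a transcription factor and CD81 a tetraspanin. KCNQ1OT1 lies inside KCNQ1. Their hg19 positions were not used here, so no window is assigned to them, and the other genes of the domain were not measured one by one.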

How the data were processed

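The deposited coverage signal of 10 CUT&RUN libraries was used as mean read depth in 1-kb bins of hg19. The tools listed per the submitters' processing notes, without roles or settings, are MACS2, SAMtools and BWA 0.7.12. Deposited peak lists give the authors' fold ratio, score and −log10 p-value or q-value for each peak; the score was not used. Depth was not scaled by the authors, as far as the values of the 9 libraries in the test show; for K562 γH2AX at 24 h, replicate 1, this is unknown.

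Bins were divided by the library mean (chromosome Y left out) and averaged in 10-kb windows with at least 50% of their bins. Windows whose H2AX libraries averaged at least 0.25 were tested on log2(level + 0.05), so fold changes understate the change of low windows. limma 3.58.1 (R 4.3.3) with a mean-variance trend fitted 9 libraries as 6 group means, with 3 residual degrees of freedom. Groups with 1 library take their spread from the others. K562 γH2AX at 24 h, replicate 1, was left out. Adjusted p-values are Benjamini-Hochberg over 276048 windows. Nothing in the labels ties replicates to separate cultures; p-values then cover only the spread of these libraries, possibly technical. The test was tried on simulated data in which only 200 of the 276048 windows changed. For K562 at 1 h against H2AX, 0% were recovered where the log2 change was 1 and 96.5% where it was 2, with 12 false calls. For HepG2 it was 0% and 82%, with 9 false calls. The Benjamini-Hochberg cut is looser where more windows pass, and 54.9% passed in the measured K562 comparison at 1 h. Its power at smaller changes therefore cannot be read from this simulation. There chr11:2390001-2400000 passed at -0.55 on the log2 scale (limma adjusted p = 0.0266).

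Gene levels are means over the bins touching the gene. Read numbers are depth divided by the inferred read length. Named windows are the 3 highest and 3 lowest past the threshold in each comparison, or the 3 lowest p where none passed; others, such as stretches and island edges, were chosen after their values were seen. Alternatives were pseudocount, filter, scaling, window size, libraries in the fit, trend, replicate block and leaving out libraries. The region, lists and tests were chosen with earlier results of these data known. Other software was matplotlib 3.10.9, scipy 1.17.1, pandas 2.3.3 and numpy 2.4.6 under Python 3.11.15. No hg19 sequence or annotation was used, so other genes of the domain, other imprinted loci and genes with like patterns were not analysed here.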

Additional observations from a re-analysis of the deposited data

Results flagged for a closer look

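By a test of the difference, γH2AX over H2AX at 1 h differed between the lines in 35 of the 90 windows of 10 kb. Of all windows, 28.4% passed. Inferred reads were 60 bp in the K562 γH2AX libraries at 1 h and 41 bp in that of HepG2. Line and read length thus cannot be told apart in this test. Over all windows, HepG2 γH2AX had a Spearman's rho of 0.642 and 0.679 with the HepG2 H2AX libraries. Whether that γH2AX library was less enriched was not tested. With 24 h replicate 1 added to the fit, 0 passed. The named windows were chr11:2410001-2420000 (log2 difference 1.87), chr11:2760001-2770000 (1.77) and chr11:2710001-2720000 (1.74), higher in K562, and chr11:2350001-2360000 (-2.01), chr11:2070001-2080000 (-1.97) and chr11:2100001-2110000 (-1.90), lower in K562. HepG2 γH2AX is 1 library, and none of the 6 passes when any 1 H2AX library is left out.

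K562 γH2AX at 24 h, replicate 1, was in no comparison, and its levels may not be comparable with the others. It reads 0 in every bin where the K562 γH2AX libraries at 1 h averaged above 1.642 reads per base, 144 of them in the region. Its own values set that cut. Its level over the region was 1.25, above the K562 H2AX values of 1.13 and 1.02, while replicate 2 was at 0.841. Over the 90 windows its Spearman's rho with H3K27me3 was 0.426, against -0.273 for replicate 2, and the 2 replicates had a rho of 0.080 with each other. Over all windows these were 0.580, 0.173 and 0.051.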

How the results depend on the processing

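The counts of windows passing out of 90 were 78 (K562 1 h against H2AX), 53 (1 h against 24 h), 0 (24 h against H2AX), 0 (HepG2 γH2AX against H2AX), 35 (difference between lines), 11 (H2AX between lines) and 76 (H3K27me3 against H2AX). The shares of all windows were, in that order, 54.9%, 47.2%, 0%, 0%, 28.4%, 30.6% and 85%. Such shares moved between settings too, as given above for some, so a changed count need not be particular to the region. With 24 h replicate 1 in the fit, the counts of 78, 35 and 11 became 0, 0 and 0. With the compared libraries alone, 1 h against 24 h gave 13, 24 h against H2AX 17, HepG2 16 and H2AX between lines 39. H2AX between lines also gave 18 with a pseudocount of 0.25, 6 without the filter and 5 when scaled to chromosome 11. In 100-kb windows, of which the region has 10, the counts were 9, 7, 6, 6 and 10 for 1 h against H2AX, 1 h against 24 h, the difference between lines, H2AX between lines and H3K27me3. Peaks with q under 0.05 were 0 in replicate 1 and 1 in replicate 2 at 1 h. Leaving out 1 library of a pair at a time gave ranges, in the order above, of 62 to 82, 42 to 74, 0 to 18, 0 to 19, 0 to 65, 0 to 43 and 71 to 79. The cause was not tested.

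Scaled to the 1 Mb on each side, log2 values changed sign for H19 (K562 1 h over H2AX 0.10, HepG2 γH2AX over H2AX 0.15, H3K27me3 over H2AX -0.55), IGF2 (24 h over H2AX 0.092), KCNQ1 (24 h over H2AX 0.14, K562 over HepG2 H2AX -0.32) and CDKN1C (K562 over HepG2 H2AX -0.016, H3K27me3 over H2AX -0.33). Same-numbered replicates hardly deviated together (Pearson's r of 0.018, 0.049 and 0.068 over windows). That cannot exclude that they share a culture or batch. With a replicate block the counts were 79, 57, 0, 0, 25, 12 and 74. Depth limits H19 and CDKN1C, with 10 to 125 reads per library.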
